A study of Homo sapiens with 4 samples.

Results

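The 667 regions described here are the SMAR1 peaks that were called in HCT116 p53-/- cells at the promoters of protein-coding genes and that overlapped no peak called in HCT116 p53+/+ cells. HCT116 cells are a line of human colorectal carcinoma, and both a p53+/+ and a p53-/- version were grown without treatment. SMAR1, also named BANP, was immunoprecipitated with the same antibody in each line, and the peaks called on the resulting ChIP-seq libraries were analysed, while the 2 libraries made with normal IgG were not analysed here. The labels do not say how the p53-/- line was derived or from how many clones.

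The regions were selected on the measured peak calls themselves. A peak of the p53-/- list on chromosomes 1 to 22 or X was taken when it shared no base with a p53+/+ peak and when its centre lay within 1 kb of the nearest transcription start site (TSS), that TSS belonging to a protein-coding gene. On these chromosomes the p53-/- list held 8127 peaks, of which 7035 (86.6%) overlapped no p53+/+ peak, and the p53+/+ list held 5471. At coding promoters there were 963 p53-/- peaks, namely the 667 of interest, here called p53-null-only (69.3%), and 296 that overlapped a p53+/+ peak, here called shared. A further 230 coding promoter peaks were found only in p53+/+ cells. Both percentages follow from the selection. The score that MACS attached to a peak is read here as its p-value on a −10 times log10 scale, the scale of that column in this version of MACS, since the lists have no header. It moves with sequencing depth, so peaks were ranked by score only within the p53-/- library. For shared peaks the p53+/+ score is also given by range of p53-/- score, without putting both on a common scale. The lowest score in the p53-/- list was 50.03 and the lowest in the p53+/+ list was 50. The peak lists hold no reads, and the alignment statistics of the study give the p53-/- library as the deeper one. With 1 library per cell line, depth, library and p53 status cannot be told apart, no difference between them could be checked against replicates, and no test was made. Intervals beside shares are 95% Wilson intervals and express counting error alone.

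SMAR1 is a nuclear matrix protein that binds matrix attachment regions and recruits a repressor complex containing HDAC1 and mSin3A to its targets. It interacts with p53, the transcription factor that induces cell cycle arrest and apoptosis genes after stress. Under the name BANP, the same protein is known to bind a palindromic CGCG element found in CpG island promoters of genes that most cells use.

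The sequences under the p53-null-only peaks fell into a few recognisable kinds. The first was the CGCG core, the 8-letter palindrome CTCGCGAG. The stretches around this word in the 5 highest-scoring peaks that held it are shown first, together with those in *CCNG1* and *RPL26*, which are returned to with the gene groups. All sequences are hg19, written 5′ to 3′ in the direction of the gene, with the word in capitals.
RELCH (chr18:59854482-59854509, plus strand): cgctccagttCTCGCGAGactggagacc
HSPH1 (chr13:31736570-31736627, minus strand): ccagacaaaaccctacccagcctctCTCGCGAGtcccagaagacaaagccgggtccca
SMNDC1 (chr10:112064709-112064736, minus strand): gtttgtatttCTCGCGAGacttcaccgt
FOXO3B (chr17:18585705-18585762, minus strand): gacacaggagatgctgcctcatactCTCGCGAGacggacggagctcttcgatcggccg
SIPA1L1 (chr14:71787004-71787061, plus strand): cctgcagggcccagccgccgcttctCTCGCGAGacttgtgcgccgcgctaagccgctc
CCNG1 (chr5:162864539-162864566, plus strand): atgcccccttCTCGCGAGaaagccccgc
RPL26 (chr17:8286542-8286569, minus strand): agacataggtCTCGCGAGatctttggta
In the 7 stretches the core lay between 133.5 bp upstream and 7.5 bp downstream of the TSS. Shorter forms were also found, the inner palindrome TCGCGA and the one-sided word CGCGAGA, which reads TCTCGCG on the other strand of the DNA. The one-sided word was added after the sequences had been seen. Peaks with the inner palindrome but no CGCG core are shown by the 3 with the highest scores.
MRE11 (chr11:94227008-94227033, minus strand): ccatgaagtgTCGCGAgagaaacgga
WDR59 (chr16:75019154-75019209, minus strand): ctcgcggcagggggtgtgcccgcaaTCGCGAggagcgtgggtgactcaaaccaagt
PPP1R10 (chr6:30585075-30585130, minus strand): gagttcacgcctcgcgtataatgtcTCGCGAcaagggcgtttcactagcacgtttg
Peaks with the one-sided word but neither palindrome are shown by the 4 with the highest scores, among them the peak with the highest score of all, at *SLC39A7*.
SLC39A7 (chr6:33168638-33168664, plus strand): aacttcctgtTCTCGCGggatctaaag
DDX20 (chr1:112298512-112298538, plus strand): ccttaagcacCGCGAGAtctgacggcg
AHSA1 (chr14:77924086-77924142, plus strand): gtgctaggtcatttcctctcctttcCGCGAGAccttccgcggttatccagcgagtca
IMP3 (chr15:75932664-75932720, minus strand): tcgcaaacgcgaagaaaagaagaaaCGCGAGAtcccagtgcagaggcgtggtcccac
The remaining kind was the T(C/G) repeat, an uninterrupted run of TC or TG pairs on either strand of at least 12 bp. The 4 longest runs and the highest-scoring peak of this kind, at *FOXN1*, are shown as whole peaks with the run in capitals.
ELMOD1 (chr11:107461060-107461173, plus strand): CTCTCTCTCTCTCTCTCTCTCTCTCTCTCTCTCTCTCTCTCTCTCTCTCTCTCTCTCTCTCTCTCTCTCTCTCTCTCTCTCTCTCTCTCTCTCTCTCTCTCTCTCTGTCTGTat
PITPNM3 (chr17:6385307-6385461, minus strand): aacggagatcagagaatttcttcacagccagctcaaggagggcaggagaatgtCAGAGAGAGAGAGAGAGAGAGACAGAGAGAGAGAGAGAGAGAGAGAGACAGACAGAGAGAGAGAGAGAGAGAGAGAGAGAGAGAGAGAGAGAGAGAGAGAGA
CREBBP (chr16:3899370-3899471, minus strand): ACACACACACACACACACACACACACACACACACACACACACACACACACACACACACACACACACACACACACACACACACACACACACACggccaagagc
NPNT (chr4:106819406-106819585, plus strand): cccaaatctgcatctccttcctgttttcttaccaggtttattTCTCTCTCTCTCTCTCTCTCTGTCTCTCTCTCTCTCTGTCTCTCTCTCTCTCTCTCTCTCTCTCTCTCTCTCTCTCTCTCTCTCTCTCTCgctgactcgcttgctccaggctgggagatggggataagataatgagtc
FOXN1 (chr17:26850784-26850858, plus strand): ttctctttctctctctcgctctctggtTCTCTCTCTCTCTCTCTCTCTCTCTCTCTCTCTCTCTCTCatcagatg
In *ELMOD1*, *NPNT* and *FOXN1* the T lay on the coding strand, and in *PITPNM3* and *CREBBP* on the opposite one. The *ELMOD1* run filled 112 bp of a 114 bp peak.

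The 20 strongest p53-null-only peaks were centred within 202 bp of the TSSs of genes with varied roles. Scores ran from 50.15 to 897.9 with a median of 76.97, and the middle of the distribution spanned 61.0 to 119.8. The highest was at *SLC39A7*, a zinc transporter of the secretory pathway (897.9, peak centre 0.5 bp downstream of the TSS). *RELCH*, which acts in cholesterol transport, scored 766.5, and *HSPH1*, a nucleotide exchange factor for HSP70 chaperones, scored 761.56. *AHSA1*, which activates the ATPase of HSP90, scored 646.94. *HSPH1* and *AHSA1* both encode cochaperones, a group whose share over all coding genes was not counted.

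Several of the 20 were at genes of RNA processing. *DDX20*, a helicase of the SMN complex, scored 656.16. *SMNDC1*, a splicing factor related to SMN, scored 634.13. *SNRPC*, a protein of the U1 snRNP, scored 531.19, and *IMP3*, a U3 snoRNP protein of ribosome assembly, scored 567.67.

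*DFFA*, the inhibitor of the nuclease that cuts DNA during apoptosis, scored 604.34. *MRE11*, the nuclease of the MRN complex in double-strand break repair, scored 576.52. The *IFT80* peak (608.96), at a gene of intraflagellar transport, also lay within 1 kb of a TSS of *SMC4*, a condensin subunit, on the other strand. Coding genes on the other strand were likewise within 1 kb at *SLC39A7* (*RXRB*), *RELCH* (*PIGN*), *DDX20* (*INKA2*) and *AHSA1* (*VIPAS39*). The same held at *DFFA* (*PEX14*), *MRE11* (*ANKRD49*), *PPP1R10* (*MRPS18B*) and *NUDT5* (*CDC123*). *WDR59*, of the GATOR2 complex in amino acid sensing, scored 547.1, and *PPP1R10*, a nuclear regulator of protein phosphatase 1, scored 517.86.

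The regulators of Rap GTPases *SIPA1L1* and *RAPGEF6* scored 559.6 and 536.99. *NUDT5*, which hydrolyses ADP-sugars, scored 514.5, and *ABI1*, of the WAVE complex, scored 494.13. The other 3 of the 20 highest peaks were in sequence that is present more than once in the genome. The central 31 bases of the peak at the olfactory receptor gene *OR51B5* (698.08) occurred 42 times, and those at *FOXO3B* (625.29) and at the cancer-testis gene *MAGEA2B* (481.41) occurred 2 times each. Reads from such sequence can be placed at any of the copies. Of the 667 p53-null-only peaks, 500 had central 31 bases found once in hg19.

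**Figure D1:**
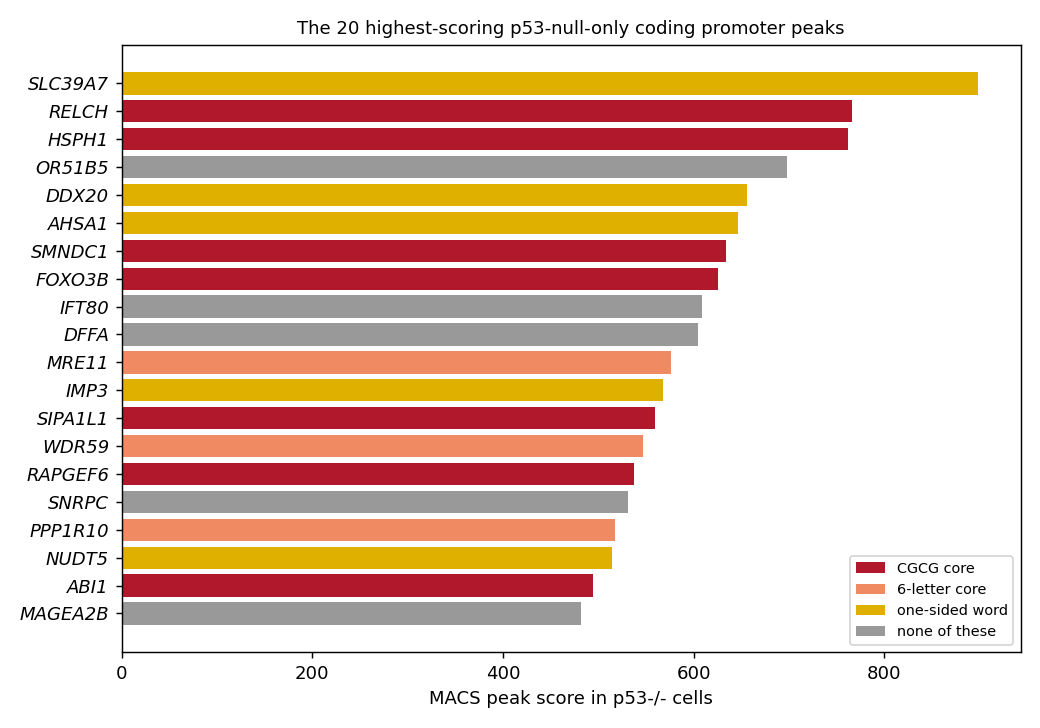
MACS score (bars, in p53-/- cells) of the 20 highest-scoring p53-null-only coding promoter peaks, coloured by the sequence found in the peak. The scores run from 897.9 at SLC39A7 to 481.41 at MAGEA2B, and none of the 20 is a T(C/G) repeat peak.

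By their strongest sequence, taken in the order CGCG core, TCGCGA, one-sided word and repeat, the 667 peaks divided into 65 with the core, 45 with TCGCGA, 105 with the one-sided word, 233 with a T(C/G) repeat and 219 with none of these. Some form of the CGCG element was thus present in 215 peaks (32.2%, 95% interval 28.8 to 35.9%). Of these, 105 counted only through the one-sided word, which was added after the sequences had been seen. A repeat was present in 237 peaks (35.5%, 32.0 to 39.2%). Only 4 peaks held both a CGCG word and a repeat, so these lay in nearly separate sets of peaks.

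Against promoters in general, both were frequent. For comparison, a window of the same length and offset from the TSS as each peak was placed at all 19819 coding promoters with 1 chosen TSS per gene. The CGCG core was in 9.75% of p53-null-only peaks (7.72 to 12.2%) and in 0.593% of these windows, a ratio of 16.4. TCGCGA was in 16.5% (13.9 to 19.5%) against 2.04%. The one-sided word, added after these sequences had been seen, was in 26.1% (22.9 to 29.5%) against 2.25%. The T(C/G) repeat was in 35.5% of the peaks against 1.57% of windows. The peaks were measured from the nearest of all TSSs, and when they too were selected with 1 TSS per gene (the gene start) the repeat share was 19.1%. Among peaks of unique sequence it was 20%. In the RefSeq promoters (GRCh38.p14, from 250 bases before to 50 bases after each start), 1.02% of 35116 held the core and 3.49% the one-sided word. A match is a description of the letters under a peak and not a proven site.

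Words of other promoter factors stood much closer to the windows. The ETS word CCGGAAG was in 10.5% of p53-null-only peaks against 6.0% of windows, and the YY1 word AAGATGGC in 3.75% against 1.73%. The CRE TGACGTCA was in 2.40% against 1.03%, the NRF1 word GCGCATGC in 2.85% against 1.65%, and the E-box CACGTG in 5.25% against 3.92%. The CCAAT box was as frequent as in the windows (18.6% against 18.0%). The SP1 word GGGGCGGG (10.8% against 15.2%) and the TATA word TATAAA (1.95% against 5.17%) were less frequent than in the windows, and both intervals (8.66 to 13.4% and 1.14 to 3.31%) lay below the window value. All words were searched on both strands, and the CGCG words overlap one another.

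Matches to the 10-base p53 consensus were found in 25 p53-null-only peaks extended by 50 bp on each side (3.75%, 2.55 to 5.47%), against 2.86% (2.50 to 3.27%) of the p53-/- peaks outside the coding promoter set, 9.46% (6.63 to 13.3%) of shared peaks and 5.65% (3.33 to 9.43%) of p53+/+-only peaks. The share was lower than in the shared peaks, whose median length is 453 bp against 115 bp, and the part of length in this was not tested. The strongest of the 25 were at *SLC39A7*, *MRE11* and *RAPGEF6*.

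**Figure D2:**
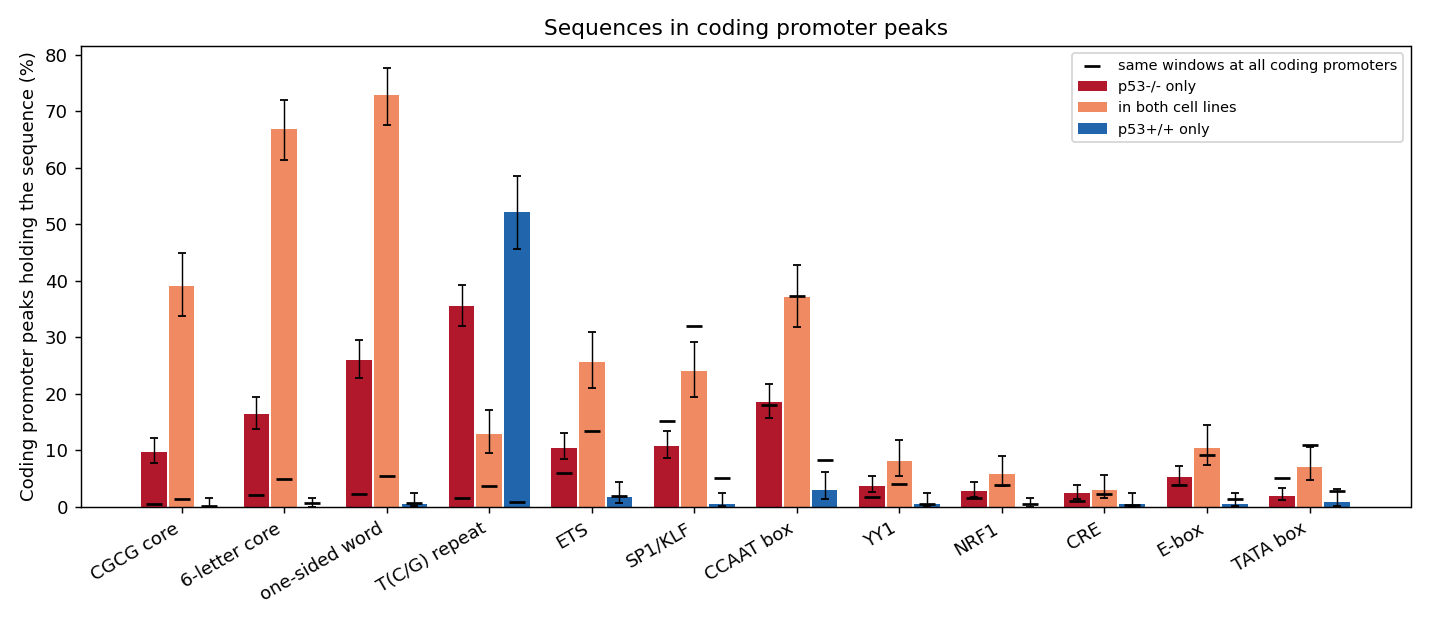
Share (%) of coding promoter peaks that hold each sequence, for the 667 p53-null-only, 296 shared and 230 p53+/+-only peaks. Error bars are 95% Wilson intervals and black dashes are windows of the same length and offset at all coding promoters. The CGCG forms stand far above the dashes in p53-null-only and shared peaks but not in p53+/+-only peaks, of which 52.2% held a T(C/G) repeat.

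In their share of CGCG words, p53-null-only peaks stood between the shared and the p53+/+-only peaks. Of the shared peaks, 39.2% held the core (33.8 to 44.9%) and 77.4% some form of the element. Of the 230 p53+/+-only peaks none held the core, which allows a share of up to 1.30%, none held TCGCGA and 1 held the one-sided word. The T(C/G) repeat ran the other way, at 12.8% of shared (9.50 to 17.1%), 35.5% of p53-null-only and 52.2% of p53+/+-only peaks (45.7 to 58.5%). Of the other 7164 p53-/- peaks, outside the coding promoter set, 82.9% held a repeat and 0.461% the core. Some of these 7164 lie within 1 kb of a coding TSS but nearer to a non-coding one. With TSSs of coding genes only, 719 p53-null-only peaks were selected. Peak length moved with these shares, with a median of 115 bp for p53-null-only, 453 bp for shared and 62 bp for p53+/+-only peaks, and a longer peak can hold more words. The windows, which share each peak's length, held the core in 0.593%, 1.43% and 0.166%, respectively. The p53+/+-only peaks had low scores in their own library, with a median of 64.4 and a highest score of 171.04. The part of peak score in these shares was not tested.

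In the 65 core peaks the core was a median of 27 bp from the peak centre, or 23.6% of the distance from the centre to the edge. In the 237 peaks that held a T(C/G) repeat, the repeat was at a median of 6.5 bp or 21.3% of that distance. The median run was 32 bp and the median length of repeat peaks 59 bp, so a run has little room to lie off centre. The value for the repeat can therefore not be ranked against those of the short words. The CRE word was at 26.6% of that distance, the CCAAT box at 36.1%, the NRF1 word at 36.8%, and the ETS and SP1 words at 45.3% and 46.3%. The core was a median of 59.5 bp upstream of the TSS, and in 52 of 65 peaks (80%) it was upstream.

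p53-null-only peaks with a CGCG word were stronger than those with a repeat. The median score was 119.49 in core peaks, 133.78 in TCGCGA peaks and 101.5 in one-sided word peaks, but 69.45 in repeat peaks and 75.33 in peaks with none of these. No repeat peak without a CGCG word scored above the 254.24 of *FOXN1*, a transcription factor of the thymic epithelium. The share of p53-null-only peaks with a CGCG word went up with score, from 19.5% (14 to 26.4%) of those scoring 50 to 60, over 27.8% at 80 to 120, to 66.1% at 200 to 400 and 74.1% (20 of 27, 55.3 to 86.8%) at 400 or more. The repeat went from 44.2% of the weakest to 1 of 59 at 200 to 400 and none of the 27 strongest, which allows a share of up to 11.1%. Median peak length also rose with score, from 92.5 bp at 50 to 60 to 448 bp at 400 or more. It was 230 bp in core peaks and 59 bp in repeat peaks. The part of length in these shares and scores was not tested.

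How often a p53-/- coding promoter peak lacked a p53+/+ counterpart also went with its score. Of those scoring 50 to 60, 92.8% (154 of 166) were p53-null-only, and this share was 88.3% at 80 to 120, 77.9% at 120 to 200, 55.1% at 200 to 400 and 13.4% (27 of 202) at 400 or more. The shared peaks had a higher median score (524.64, reaching 3160.36). Where a p53-/- peak of low score did have a counterpart, that counterpart was often near the floor of the p53+/+ list. Low scores were common in that list as a whole, whose median was 67.88. For shared peaks scoring 50 to 120 in p53-/- cells the p53+/+ score had a median of 59.1, and 27 of 50 were under 60. At 200 to 400 the median was 81.85 and 8 of 48 were under 60. At 900 or more, where no p53-null-only peak was found, the median was 236.14.

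At the same score, p53-null-only and shared peaks were more alike in sequence. At 200 to 400, 66.1% of 59 p53-null-only peaks (53.4 to 76.9%) and 83.3% of 48 shared peaks (70.4 to 91.3%) held a CGCG word, and their median lengths were 390 and 381 bp. At 400 to 900, the highest range that held both kinds, the shares were 74.1% of 27 (55.3 to 86.8%) and 86.9% of 99 (78.8 to 92.2%), with median scores of 547.1 and 614.42. The share was lower in p53-null-only peaks in each of the ranges above 60, with overlapping intervals. In the lowest range, 50 to 60, it was 19.5% of 154 against none of 12 shared peaks, too few to limit that share below 25%.

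**Figure D3:**
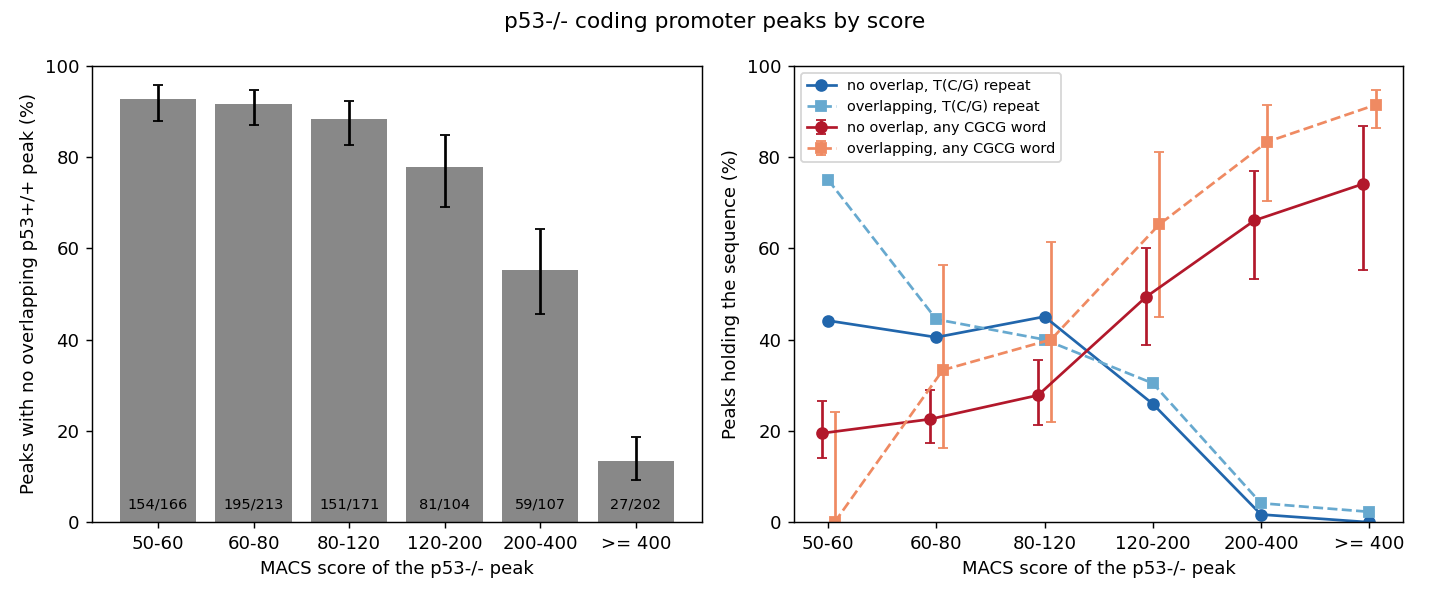
Left, share (%) of p53-/- coding promoter peaks with no overlapping p53+/+ peak, by MACS score, with counts in the bars. Right, share (%) of p53-null-only peaks (circles, solid) and shared peaks (squares, dashed) that hold any CGCG word or a T(C/G) repeat. Error bars are 95% Wilson intervals. The left share falls from 92.8% to 13.4% while the CGCG share of p53-null-only peaks goes from 19.5% to 74.1%.

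The p53-null-only peaks gathered just upstream of the TSS. Of the 667, 420 (63.0%, 59.2 to 66.5%) were centred upstream, 281 (42.1%, 38.4 to 45.9%) lay within 100 bp of the TSS and 124 (18.6%) lay over 500 bp away. Among shared peaks 222 of 296 (69.8 to 79.6%) were upstream and 68.2% within 100 bp, and among p53+/+-only peaks 24.3% were within 100 bp. Position went with sequence. Of the core peaks 61.5% lay within 100 bp, of the TCGCGA peaks 66.7% and of the one-sided word peaks 64.8%, against 47.9% of peaks with none of these and 16.3% of repeat peaks. Of the repeat peaks 42.1% lay over 500 bp from the TSS, against 1 of 65 core peaks.

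**Figure D4:**
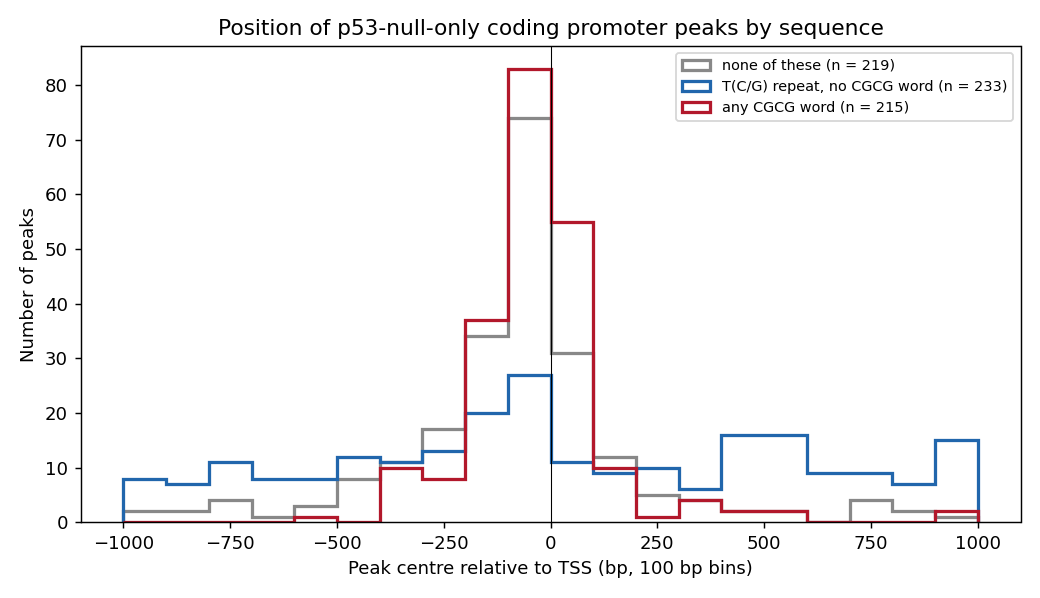
Number of p53-null-only coding promoter peaks in 100 bp bins of distance from the TSS (negative is upstream), by sequence. The 215 peaks with a CGCG word and the 219 with none of these gather at the TSS, while the 233 repeat peaks spread over the whole window.

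By gene component, 31.2% of the peak centres lay outside the gene, 22.5% in its 5′UTR, 39.4% in an intron, 2.10% in a coding exon, 4.20% in another exon and 0.60% in a 3′UTR. A centre counted as upstream of 1 TSS could lie in an intron, since genes with several TSSs were measured from the nearest. At 105 peaks (15.7%) a coding gene on the other strand also had a TSS within 1 kb. In the 500 bp around the centre, 382 peaks (57.3%, 53.5 to 61.0%) had a GC content over 50% and an observed to expected CpG ratio over 0.6, as CpG islands do, against 83.8% of shared and 18.7% of p53+/+-only peaks. Core peaks had a median CpG ratio of 0.863 and repeat peaks of 0.244.

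**Figure D5:**
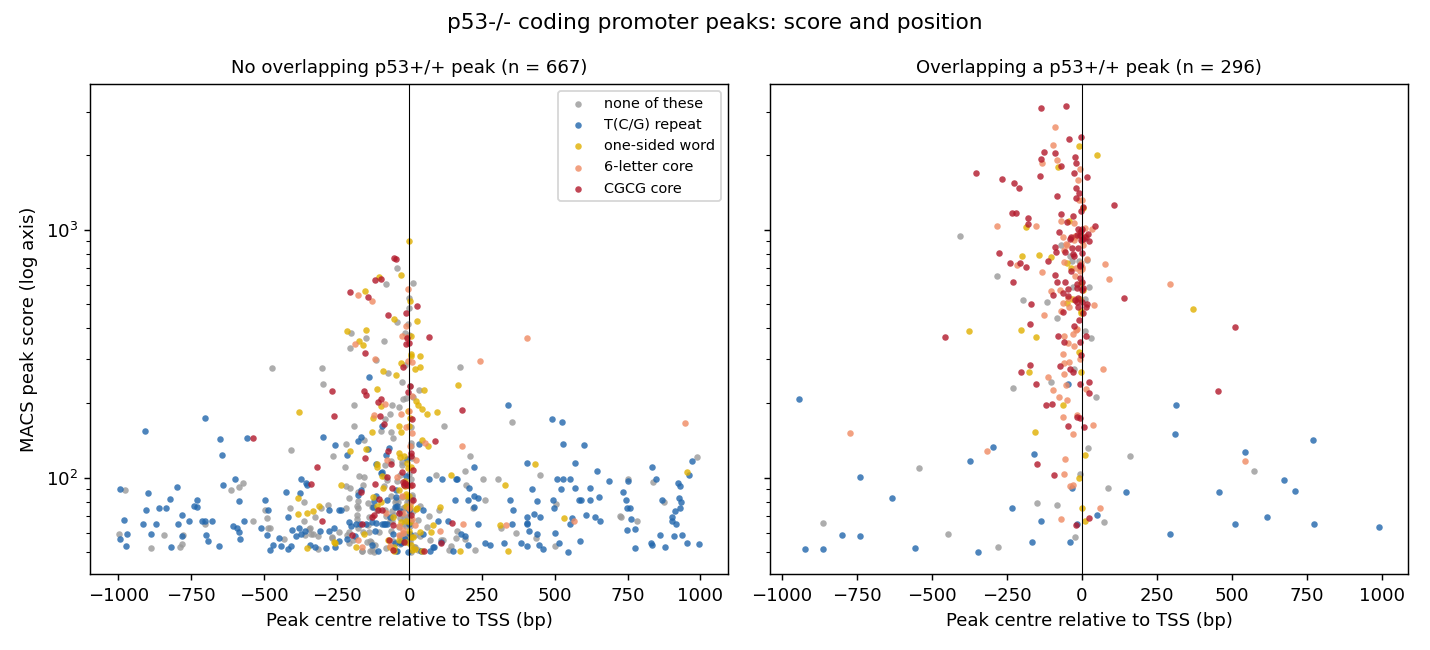
MACS score in p53-/- cells (log axis) against the distance of the peak centre from the TSS (bp, negative is upstream), for the 667 p53-null-only peaks (left) and the 296 shared peaks (right), coloured by sequence. The highest scores sit close to the TSS, 20 of the 27 p53-null-only peaks at 400 or more hold a CGCG word, and the repeat peaks lie near the lower limit at all distances.

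Within the T(C/G) repeats, TC and TG were both common. A pure TC run of at least 12 bp was in 139 peaks and a pure TG run in 101, with both in 19 and only mixed runs in 16. The longest runs were in *ELMOD1* (112 bp, score 173.36), a gene of an ARF GTPase-activating protein family, *PITPNM3* (102 bp, 73.9), a phosphatidylinositol transfer protein family member, *CREBBP* (92 bp, 69.53), a histone acetyltransferase, *NPNT* (90 bp, 82.58), an extracellular matrix protein, and *RHOBTB2* (80 bp, 55.72). The median run was 32 bp. The T lay on the coding strand in 131 of 237 peaks (55.3%, 48.9 to 61.5%), an interval that includes equal use of both strands. By side of the TSS, it did so in 65 of 128 upstream peaks (50.8%, 42.2 to 59.3%). Among downstream peaks it did so in 66 of 109 (60.6%, 51.2 to 69.2%). Only 41.2% of repeat peaks had central 31 bases found once in the genome, against 95.4% of core peaks, so many repeat peaks lie in sequence to which short reads map less surely.

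The p53-null-only peaks lay at 621 coding genes, of 20098 annotated, and 45 of these genes had more than 1 such peak. Some such peaks lay a few bases apart, as at *ANAPC5* (chr12:121790157-121790332 and chr12:121790334-121790539). They can be parts of 1 enriched stretch and need not be separate sites. To 25 of the 621 a shared peak (14 genes) or a p53+/+-only coding promoter peak (11 genes) was also assigned. A p53+/+ peak assigned to another TSS can still be near, as at *ATP5PB*, a subunit of ATP synthase (gap of 91 bp, score 75.58, p53+/+ peak of 219.17). The median gap to the nearest p53+/+ peak was 174687 bp, and 34.3% lay within 100 kb of one, close to the 32.1% of the 6368 other p53-/- peaks that overlapped none. Within 1 kb lay 19 (2.85%), against 1.57% of those other peaks, and 13 lay within 100 bp.

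The nearest were at *DBR1*, the RNA lariat debranching enzyme (gap of 6 bp, score 100.15), *MGRN1*, a ubiquitin ligase (16 bp, 382.63), and *RPS15*, a ribosomal protein (20 bp, 75.97). These 3 are inside the rule by a few bases, and the p53+/+ neighbours scored 114.85, 61.33 and 90.78 in their own library. At each of the 3 genes a shared p53-/- peak ended shortly before the p53-null-only peak. At *DBR1* it ended at chr3:137893859, and the p53-null-only peak began at chr3:137893868. Just outside it were the shared peaks with the shortest overlaps, at *ZWILCH* (15 bp), *GOLT1A* (16 bp) and *SYT3* (33 bp). At the distance limit, *PFKL* (996.5 bp from the TSS), *COL25A1* and *EPHA7* (995.5 bp each) were just inside, and *ACOT9* (1000.5 bp), *SDHAF3* (1005.5 bp) and *PLPP4* (1011 bp) just outside. Among genes with promoter peaks in both lists, the highest p53-null-only scores were at *MGRN1*, at *DSE*, an epimerase of dermatan sulfate (258.38), at *RBPJ*, the DNA-binding factor of Notch signalling (222.07, with a p53+/+ peak 1121 bp away), at *KSR2*, a scaffold of RAF signalling (143.28, 84 bp away), and at *DGKB* and *PDE2A* (116.63 each).

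Gene groups were described by how many of their genes had a p53-null-only peak, beside 3.09% (621 of 20098) of all coding genes. A shared peak was found at 1.45% of all coding genes (292) and a p53+/+-only peak at 218, so a count of 0 or 1 in a short list is near that background. Genes of the spliceosome and splicing factors had such a peak at 10 of 128 (7.81%, 4.30 to 13.8%), and 10 had a shared peak. Besides *DDX20*, *SMNDC1* and *SNRPC*, they included *HNRNPK*, an hnRNP protein (349.84, with the core), *LSM8* of the U6 snRNP (263.32), *USP39* (184.99) and *SRSF5* (145.13). None of the 10 held a repeat and 5 held a CGCG word.

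Cytosolic ribosomal protein genes had 4 of 86 (4.65%, 1.82 to 11.4%), all with a CGCG word, among them *RPS3A* (374.1) and *RPL26* (347.15), whose core is shown above, while 13 had a shared peak. Mitochondrial ribosomal protein genes had 3 of 82, with the highest score at *MRPS18C* (314.21). Genes with the EIF symbol had 3 of 55 (*EIF4A2* 107.1, *EIF3L* 89.41 and *EIF2AK3* 50.25, the last a kinase of eIF2 and not itself an initiation factor), the tRNA synthetases 2 of 41 (*LARS1* 364.71, *SARS2* 73.4) and the RNA polymerase subunits 2 of 35 (*POLR1C* 408.03, *POLR2B* 369.32, both with TCGCGA). Genes with the proteasome symbol PSM, not all of which need encode subunits, had 3 of 50 (*PSMA8* 172.87, *PSMD2* 162.17, *PSMD9* 76.65). Complex I genes had 1 of 48 (*NDUFB6* 69.06).

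DNA replication genes had 5 of 55 (9.09%, 3.95 to 19.6%), namely *RPA3* (133.67), *POLE* (121.89, with the core), *CDC6* (75.33), *MCM4* (60.81) and *POLD1* (58.68). DNA repair genes had 6 of 102 (5.88%, 2.72 to 12.2%), led by *MRE11* (576.52), *SMARCAL1*, an annealing helicase at stalled forks (416.95), *MSH5* (142.14) and *PARP2* (120.13). A shared peak was found at 1 repair gene. Mitosis and kinetochore genes had 9 of 115 (7.83%, 4.17 to 14.2%), with *RACGAP1* of the central spindle at 423.42, *PMF1* of the MIS12 complex at 279.46 and *ANAPC5* of the anaphase-promoting complex at 136.41, and 12 had a shared peak. These intervals take the genes of a list as independent, and neighbouring or related genes are not.

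Among 41 canonical p53 targets, 2 had a p53-null-only peak and none had a shared or a p53+/+-only peak. Over all 20098 coding genes, 292 had a shared and 218 a p53+/+-only peak, so counts of 0 here are near that background. *CCNG1*, which encodes cyclin G1, had a peak of score 453.03 centred 73.5 bp upstream of the TSS with the CGCG core 22.5 bp upstream of it, and the nearest p53+/+ peak was 3890 bp away (score 59.29 in its library). *TP53I3*, an oxidoreductase gene, had a weak peak of 76.09. The share of the group with a p53-null-only peak was 4.88% (1.35 to 16.1%), beside 3.09% of all coding genes.

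Subunits of the Sin3 and HDAC corepressors, the complexes that SMAR1 is known to recruit, had p53-null-only peaks at 4 of 38 genes (10.5%, 4.17 to 24.1%) and no shared peak. A shared peak was found at only 1.45% of all coding genes, so its absence in this short list is near that background. The 4 genes included *SAP18* (81.36, with the core), *TBL1XR1* (66.65) and *RBBP4* (53.45). Of 26 matrix attachment factor genes, only *NCL*, encoding nucleolin, had a p53-null-only peak (66.22), and 4 had a shared one.

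Zinc finger genes had 15 of 515 (2.91%, 1.77 to 4.75%), with the highest scores at *ZNF219* (236.06), *ZNF384* (109.32), *ZNF827* (90.93) and *ZNF566* (85.78), all with the one-sided word. Histone genes under their current symbols had 4 of 82 (*H2AC7* 66.65, *H2BW2* 55.44, *H2BC18* and *H2BC21*). *HIST2H2AA3*, which the annotation gives under an older symbol and which was therefore not in the list, had a peak of 293.37 with TCGCGA, centred 9 bp downstream of the TSS, and its central 31 bases occurred 2 times in the genome. The *H2BC18* and *H2BC21* peaks had the same score of 50.8, and their central 31 bases occurred 7 and 9 times in the genome. Olfactory receptor genes had 5 of 414 (1.21%, 0.517 to 2.80%), of which 4 were repeat peaks at *OR4E2*, *OR2B11*, *OR13G1* and *OR1L3* (65.06 to 82.94) and the other was the multi-copy *OR51B5* peak.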

How the data were processed

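SMAR1 ChIP-seq peak lists from 1 anti-SMAR1 library in each of HCT116 p53+/+ and HCT116 p53-/- cells were used. Per the submitters' processing notes, the authors worked with CASAVA, cutadapt 1.2.1, FastQC 0.10.1, Bowtie2 2.2.1, SAMtools 0.1.19 and MACS 1.4.2 on hg19. The deposited values are a score per peak, obtained by the authors from MACS. This score is read here as −10 times the log10 of the p-value (the lists have no header and the lowest value is 50). It depends on depth and was not put on a common scale across libraries. For shared peaks the p53+/+ scores were given by range of p53-/- score. Fold enrichment is not a column of the lists, and the filter the study placed on it was not repeated. The role of the IgG libraries in peak calling is not given in the sources used here.

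Peaks were converted to 1-based coordinates and set against hg19 (GRCh37) and GENCODE release 44 mapped to it, with TSSs of all transcripts and coding genes preferred in ties. Words were searched on both strands within the peaks. The number of copies of the central 31 bases was counted over the whole genome. The overlap, distance and repeat functions were tested on simulated data.

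The selection of peaks and all gene lists and words were made with earlier results of these data known. The genes named are the 20 highest-scoring peaks, the 5 highest with the CGCG core and the 5 with the longest repeat, up to 4 of each gene list by score, the 3 nearest each limit, and up to 5 whose gene has a promoter peak in both lists, with the tie at the last score kept. The stretches shown with the shorter words and the *FOXN1* peak were added later. A few loci are not reported here. Alternatives were other TSS windows and annotations, other overlap rules, a score minimum, other repeat and word definitions and peaks of unique sequence. The software was Python 3.11.15 with pandas 2.3.3, numpy 2.4.6, pysam 0.24.0, scipy 1.17.1 (not used for tests), matplotlib 3.10.9 and numba 0.67.0.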

Additional observations from a re-analysis of the deposited data

How the results depend on the processing

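No paired analysis was possible because each cell line had 1 anti-SMAR1 library, and for the same reason no library was left out. The sets rest on peak calls in libraries of unequal depth, so the absence of a p53+/+ peak is not the absence of binding.

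Of 66 alternative values, 39 stayed within the counting interval of the reported value (within 1.5 times for the number of peaks). With 1 TSS per gene, 418 peaks were selected in place of 667, 63.2% of p53-/- coding promoter peaks lacked a p53+/+ peak, 19.1% of the selected held a repeat and 13.6% the core, and 57.7% were upstream. With only peaks at or above the median score of each list, 432 peaks had a median score of 116.81, 27.3% held a repeat and 14.8% the core. A TSS window of 500 bp gave a repeat share of 25.6% and an upstream share of 67.2%, and one of 2 kb gave a repeat share of 45.7% and a p53-null-only share of 72.6%. In 5 groups of equal size from the lowest to the highest score, the p53-null-only share was 93.8%, 90.6%, 86.0%, 64.6% and 11.4%. Repeats of at least 6 or 20 bp were in 73.2% and 28.5%. The core with flanking T and A was in 3.75%, TCGCGA in 16.5% and the one-sided word in 26.1%. With only peaks whose central 31 bases occur once (chosen after seeing the data), the p53-null-only share was 64.9%, the repeat share 20%, the core share 12.4% and the median score 81.61. In each of these the cause was not tested beyond the alternative's own construction.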
